A study of Mus musculus with 41 samples.

Results

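The genes described here are 10 markers of mesothelial and simple epithelial identity: Msln, Wt1, Pdpn, Calb2, Upk3b, Lrrn4, Krt7, Krt8, Krt18, and Krt19. They were chosen for what they mark, with earlier results of these data known. Each was found by its symbol among the 27197 genes of an RNA count table. The question was whether mouse mesotheliomas hold markers that cell lines grown from such tumors lack. JB81 and JB91, 2 of 3 cell lines without Bap1, were nearly the same over all genes. In both, 8 of the 10 genes were under 1 CPM (the read count scaled to a common library size). Of these 8, 7 were at 1 CPM or more in each of 9 tumors. Of all 27197 genes, 15938 were under 1 CPM in both lines, and 1448 of these were at 1 CPM or more in each tumor. The third line without Bap1, JB97, held most of the 8 genes, and Wt1 was high in every line and tumor.

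Mesothelium is the flat cell layer that lines the pleura and other body cavities, and malignant mesothelioma arises from it. Mesothelial cells are unusual in that they contain both the keratins of simple epithelia and vimentin, the intermediate filament protein of mesenchymal cells, together with the transcription factor WT1. Pathologists use keratins, WT1, podoplanin, calretinin (the product of Calb2), and mesothelin to tell mesothelioma from other tumors, and sarcomatoid mesotheliomas often hold fewer of these markers than epithelioid ones. Keratins work as pairs of a type II and a type I protein, in simple epithelia mainly keratin 8 with keratin 18, and keratin 7 with keratin 19.

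The RNA series comprised 15 libraries. The BNC lines JB81, JB91, and JB97 were labelled Bap1-/-;Nf2-/-;Cdkn2ab-/-, and the NC lines JB84, JB87, and JB93 Nf2-/-;Cdkn2ab-/-, so that all 6 lines share the loss of Nf2 and Cdkn2ab. The 9 tumors, B1, B2, B13, B14, B19, B27, B28, B45, and 22, include 5 that were labelled with the BNC genotype and 4 with the NC genotype, but the names in the count table do not say which is which, so they were kept as 1 group of both genotypes. In the study, conditional mice of a mixed background (FVB, Bl6, 129Ola) received an adenovirus with Cre into the pleural space. The CMV promoter that drives this Cre is active in many cell types, and in the Cdkn2ab allele Ink4a and Ink4b are already lost in the germline. Lines were grown from pieces of primary tumors. Ages were not given in the labels, and the labels do not say whether libraries of a group came from separate mice, so that p-values measure the spread between libraries.

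Totals ran from 8158740 counts in tumor B1 to 23936922 in JB81, and 3 counts, the smallest level the depth can show, corresponded to between 0.124 and 0.232 CPM, except for 0.856 CPM in B1. B1 stood apart from the other libraries, with 60.1% of its counts in 20 genes. The gene Gm42418 took 24.7% of the counts of B1, and mitochondrial genes took 17.3%. Gm42418 also took 7.18% of the counts of tumor B13, and between 0.312% and 2.46% in the other libraries. The names in the count table carry a numeric prefix whose meaning is not stated. All 9 tumors shared a prefix that no line had, so whatever it marks and the difference between tumor and line cannot be told apart. JB81 and JB91 were nearly the same over all genes (5 of 10511 genes with enough reads differed more than 2-fold), as were JB84 and JB93 (8 of 10545), although each pair carried 2 different prefixes. The other pairs within a group differed at between 1562 and 2550 genes. Bap1 itself was between 36.9 and 41.4 CPM in the BNC lines, 56.8 and 60.3 CPM in the NC lines, and 44.2 and 74.8 CPM in the tumors. Its conditional allele removes only part of the gene.

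Msln encodes mesothelin, a surface protein anchored to the mesothelial membrane (ENSMUSG00000063011, chromosome 17 of GRCm38, 25748613 to 25754378). Its level was 0.207 CPM in JB81 and 0.415 CPM in JB91, from 5 and 10 reads, but 224 CPM in JB97. In the NC lines it was 1915 CPM in JB84, 844 CPM in JB87, and 2018 CPM in JB93. Across the tumors it went from 43.4 CPM in B28 over a median of 575 CPM to 1446 CPM in B14. JB81 and JB91 thus lay far below every other library, and JB97 was 719 times their mean. Each NC line was above each BNC line, whereas 6 of 9 tumors lay above JB97 and 3 below it.

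Pdpn encodes podoplanin, a mucin-type glycoprotein of mesothelium that lymphatic endothelium also carries (ENSMUSG00000028583, chromosome 4, 143267431 to 143299564). It was read at 0.289 CPM (JB81), 0.539 CPM (JB91), and 110 CPM (JB97). Among the NC lines its level was 169 CPM in JB84, 220 CPM in JB87, and 173 CPM in JB93. The tumors lay between 136 CPM (B45) and 432 CPM (B14) with a median of 253 CPM. Pdpn was the steadiest of the surface markers in tumors, with 3.19-fold between the lowest and the highest, and every tumor was above every BNC line. Prox1, Lyve1, Flt4, and Ccl21a, which mark lymphatic endothelium, summed to between 78.0 and 369 CPM in the tumors and to at most 91.9 CPM in the lines. Flt4 alone made up 357 CPM of the highest sum, in B14, and 91.2 CPM of the sum in JB97. In B14 Prox1, Lyve1, and Ccl21a were at 1.18, 5.56, and 5.06 CPM. The part of lymphatic endothelium in the Pdpn level of tumors was not tested.

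Upk3b and Lrrn4, which encode a uroplakin and a leucine-rich repeat protein of the mesothelial surface, behaved alike in the BNC lines. Upk3b (ENSMUSG00000042985, chromosome 5, 136038496 to 136046487) had 2.31 CPM (JB81), 2.32 CPM (JB91), and 162 CPM (JB97), and 150 CPM in JB84, 196 CPM in JB87, and 177 CPM in JB93. In tumors the lowest level was 3.65 CPM (B28), the median 418 CPM, and the highest 1212 CPM (B14). Tumor B28 was therefore close to JB81 and JB91 for this gene, and 6 of 9 tumors exceeded every line. Lrrn4 (ENSMUSG00000043110, chromosome 2, 132868305 to 132880891) had 1 read in JB81, 4 reads in JB91, and 113 reads or 5.66 CPM in JB97. In the NC lines it was 0.944 CPM in JB84 and 1.04 CPM in JB93, against 22.9 CPM in JB87. The tumors ranged from 3.19 CPM (B28) through a median of 58.9 CPM to 165 CPM (B45), so that 8 of 9 were above all BNC lines and 7 of 9 above all NC lines.

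Wt1, the Wilms tumor transcription factor of mesothelium and its precursors (ENSMUSG00000016458, chromosome 2, 105126529 to 105173616), did not share this pattern. Its level was 123 CPM (JB81), 123 CPM (JB91), and 75.2 CPM (JB97), and 80.3 CPM in JB84, 106 CPM in JB87, and 72.1 CPM in JB93. In the tumors it ran from 40.7 CPM (B28) over 89.3 CPM to 285 CPM (B14). The 3 groups overlapped, and the lines with almost no Msln and Pdpn reads held as much Wt1 as the other lines or more. Calb2, which encodes the calcium-binding protein calretinin (ENSMUSG00000003657, chromosome 8, 110137502 to 110168210), had 0 reads in all 6 lines and in 5 tumors, and 1 read in B2 and in B28. It had 20 reads in tumor 22 and 248 reads (11.3 CPM) in B27.

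**Figure D1:**
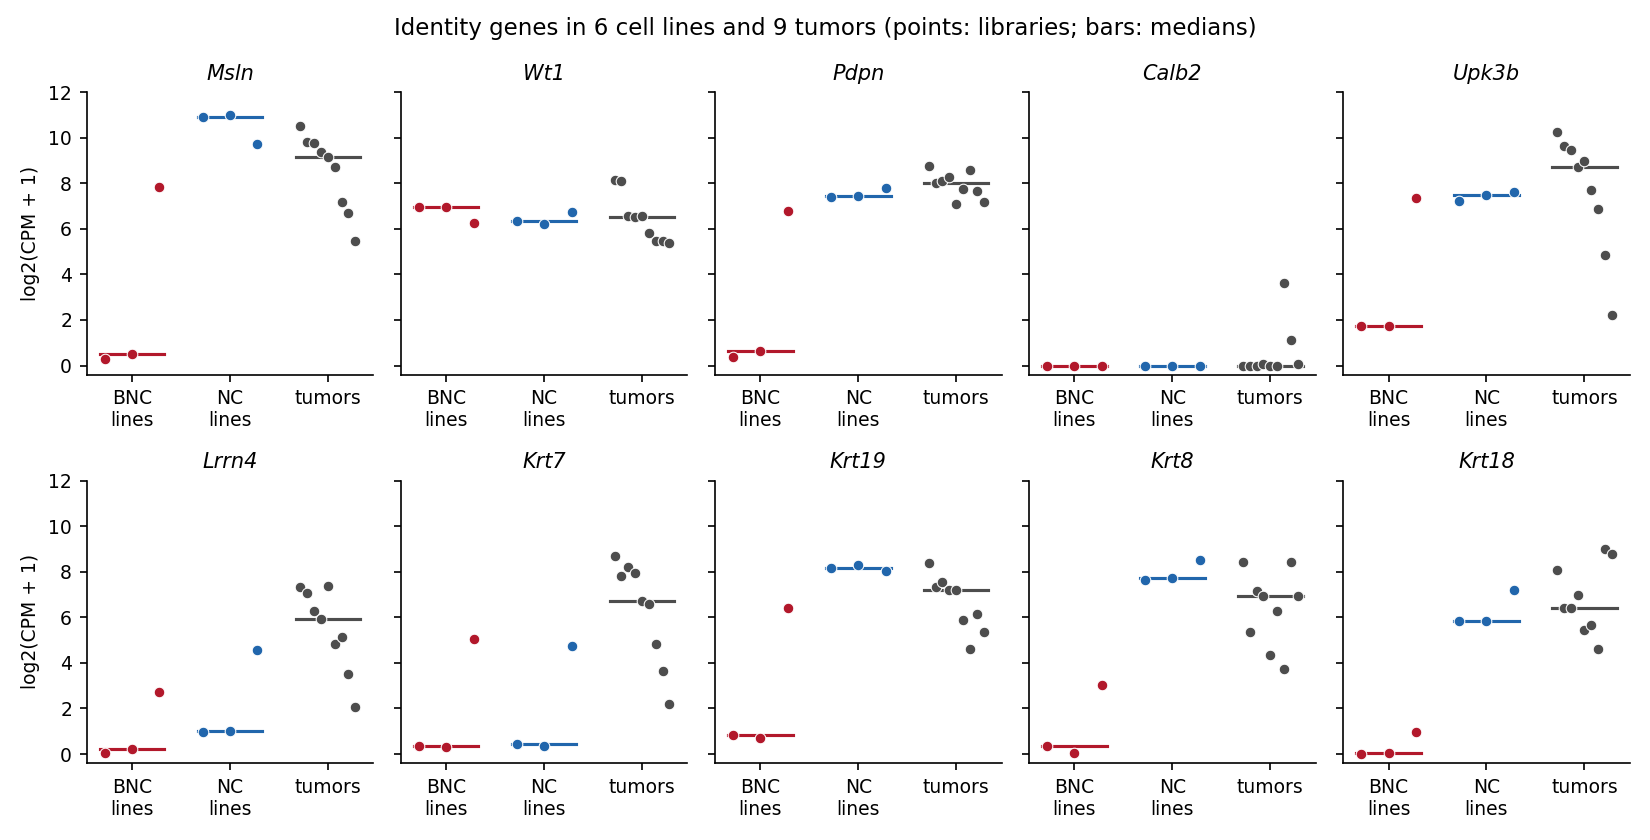
Level of each identity gene as log2(CPM + 1) in the 3 BNC lines, 3 NC lines, and 9 tumors (points are libraries, bars are group medians, and the order of libraries within a group is the same in each panel). JB81 and JB91 sit near 0 in all panels but Wt1 and, at about 2.3 CPM, Upk3b, whereas JB97 sits near the tumors for Msln, Pdpn, and Upk3b.

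Krt8 and Krt18 are neighbors on chromosome 15, 23.7 kb apart, and encode the partner keratins with which simple epithelial cells build their intermediate filaments. Krt8 (ENSMUSG00000049382, 101996698 to 102004482) was read at 0.289 CPM (JB81), 0.0415 CPM (JB91), and 7.21 CPM (JB97). It was read at 197 CPM in JB84, 365 CPM in JB87, and 208 CPM in JB93. Among tumors it lay between 12.4 CPM (B27) and 346 CPM (B14), with a median of 121 CPM. Krt18 (ENSMUSG00000023043, 102028180 to 102032027) had 0 reads in JB81, 1 read in JB91, and 19 reads (0.951 CPM) in JB97. Its level was 56.3 CPM in JB84, 146 CPM in JB87, and 55.3 CPM in JB93, and the tumors ran from 23.7 CPM (B27) through 84.1 CPM to 506 CPM (tumor 22). For both genes every tumor and every NC line was above every BNC line, and JB97 was low here although it held the mesothelial surface genes.

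Krt19, a small type I keratin, was present in JB97 in the manner of Msln, not of Krt18. This gene (ENSMUSG00000020911, chromosome 11, 100140810 to 100148665) was at 0.785 CPM (JB81), 0.622 CPM (JB91), and 83.3 CPM (JB97), and at 289 CPM in JB84, 261 CPM in JB87, and 313 CPM in JB93. Tumors ranged from 23.3 CPM (B27) over 144 CPM to 328 CPM (B14), and 8 of 9 lay below every NC line. Krt7, a type II keratin of simple and mesothelial linings (ENSMUSG00000023039, chromosome 15, 101411043 to 101430313), was at 0.289 CPM (JB81), 0.249 CPM (JB91), and 31.7 CPM (JB97). Of the NC lines, JB84 had 0.378 CPM and JB93 0.272 CPM, from 6 reads each, and JB87 had 25.8 CPM. The tumors lay between 3.55 CPM (B28) and 410 CPM (B14) with a median of 103 CPM. Krt7 and Lrrn4 were thus near 0 in JB81, JB91, JB84, and JB93, and present in JB97, in JB87, and in all 9 tumors. JB81 and JB91 were nearly the same over all genes, as were JB84 and JB93, so the lines of a pair may not count as separate. Each genotype thus held a close pair with almost none of these genes and another line that had them.

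The sequences just before the RefSeq starts of Krt8, Krt18, and Krt7 are shown. Among the keratins of the members these 3 were lowest in JB81 and JB91, and Krt19, the other, had no sequence to show. Shown are the 250 bases upstream of the RefSeq start in GRCm38.p6, written 5′ to 3′ on the strand of the gene. The gene positions given above come from GENCODE, whose starts differ from these. The Krt7 window lies wholly inside the GENCODE span of its gene, and the Krt8 and Krt18 windows reach into theirs. The matches marked in Krt7 and Krt8 thus lie within those spans. Capitals mark CACCTG, the E-box bound by repressors such as the SNAIL and ZEB factors, and GGGCGG, the GC box, on either strand.
Krt8, chr15:102004343-102004592, minus strand: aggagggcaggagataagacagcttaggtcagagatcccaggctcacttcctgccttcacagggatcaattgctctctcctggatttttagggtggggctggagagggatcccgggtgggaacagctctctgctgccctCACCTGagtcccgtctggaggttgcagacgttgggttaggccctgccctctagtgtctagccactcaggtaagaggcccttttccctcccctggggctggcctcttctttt
Krt18, chr15:102027966-102028215, plus strand: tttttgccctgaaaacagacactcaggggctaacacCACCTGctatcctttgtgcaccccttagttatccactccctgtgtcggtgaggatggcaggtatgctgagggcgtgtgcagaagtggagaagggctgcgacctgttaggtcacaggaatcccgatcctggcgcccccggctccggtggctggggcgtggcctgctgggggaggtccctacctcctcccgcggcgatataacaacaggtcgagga
Krt7, chr15:101412153-101412402, plus strand: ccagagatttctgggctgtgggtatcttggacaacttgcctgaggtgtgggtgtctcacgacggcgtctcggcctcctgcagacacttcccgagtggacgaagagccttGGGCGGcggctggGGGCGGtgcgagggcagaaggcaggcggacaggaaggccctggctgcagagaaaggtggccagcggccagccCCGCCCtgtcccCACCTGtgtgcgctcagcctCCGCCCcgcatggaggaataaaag
CACCTG or its complement occurred in these 3 windows, at -111 in Krt8, -214 in Krt18, and -44 in Krt7, and in none of the windows of Pdpn, Upk3b, and Lrrn4, the other members with a sequence in the table. Of all 32851 windows of this length, 17.2% held it. The GC box occurred 4 times in the Krt7 window and in none of the other 5, against 32.7% of all windows with at least 1, and it did not overlap the E-box. CATTCC, the motif of TEAD factors, was found in the windows of Upk3b (at -241) and Lrrn4 (at -196) and in 12.6% of all windows. The TATA box TATAAA (12.4% of windows) and the AP-1 site TGANTCA (6.75%), also read on both strands, were in none of the 6. These are matches of letters, and binding was not measured at them here.

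Per kilobase of exon the keratins differed in makeup between NC lines and tumors. Krt8 was between 1.84 and 2.76 times Krt18 in the NC lines, and between 0.204 (B28) and 1.22 times (B19) in the tumors, with a median of 0.497, so that the ranges of these ratios did not overlap. In the type I pair, Krt19 made up between 58.1% and 81.4% in the NC lines. It made up only 6.56% in B28 and 9.69% in tumor 22, where Krt18 was highest, and between 43.2% and 72.7% in the other 7 tumors. The exon length was that of all annotated exons of a gene together, 7049 bp for Krt7 beside 1958 bp for Krt8. The size of the Krt7 shares depends on these lengths, which are the same in every library. Krt7 made up at most 1.92% of the type II pair in the NC lines. Its share was 0.806% in B28 and 0.914% in tumor 22, and between 24.8% and 60.6% in the other 7 tumors. JB97, the BNC line with keratin reads, had 55.0% of Krt7 in the type II pair, within the range of the tumors, and 98.5% of Krt19 in the type I pair, above all of them. Krt8 overlaps a noncoding gene on the opposite strand (Gm36026) and Krt7 an antisense gene (Gm671), and the strand setting of the counting is not stated, so reads of these pairs cannot be told apart. Krt8 also has 1 named pseudogene that could share its reads.

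**Figure D2:**
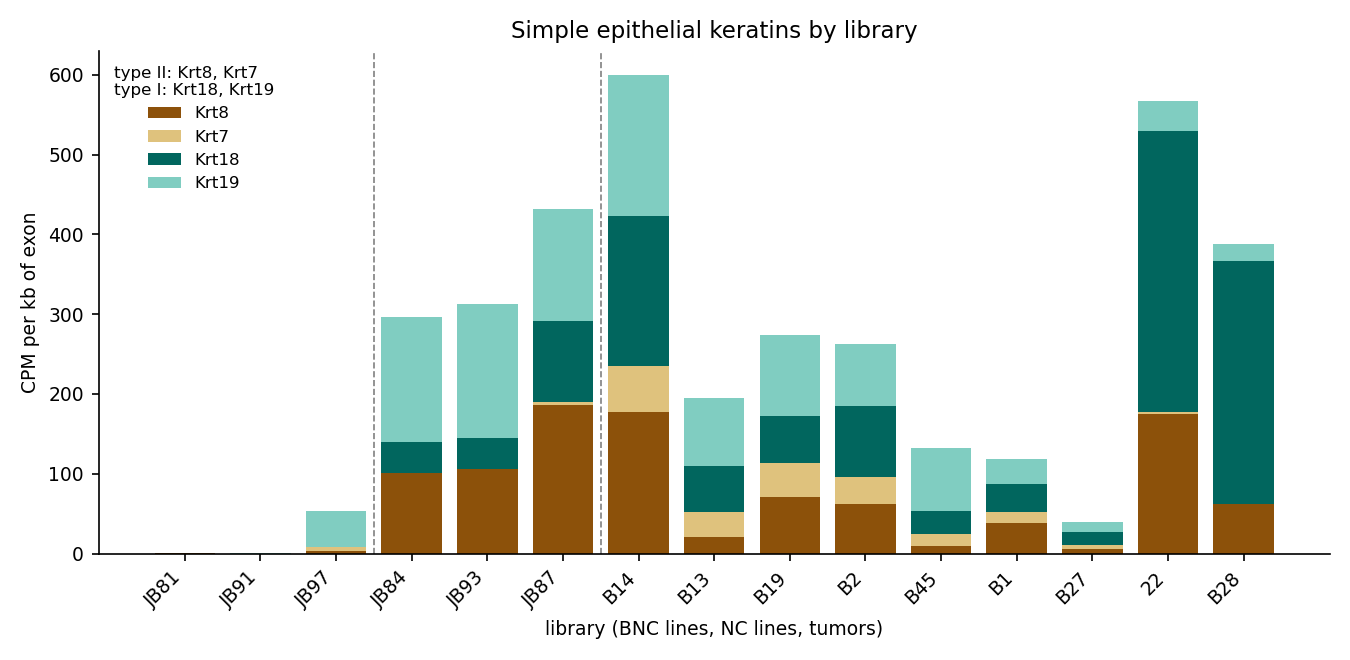
Stacked CPM per kb of exon of the type II keratins Krt8 and Krt7 and the type I keratins Krt18 and Krt19 in each library. JB81 and JB91 have almost none, JB97 mostly Krt19, the NC lines mostly Krt8 and Krt19, and tumors 22 and B28 mostly Krt18.

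The BNC lines were compared with the NC lines to ask which markers differ with the Bap1 genotype, by edgeR's quasi-likelihood test on the 6 lines with Benjamini-Hochberg adjustment over 12376 genes. Genes were called when the adjusted p was below 0.01 and the levels differed over 2-fold. Of the 10 identity genes 8 had enough reads to be tested (not Calb2 and Krt7), and 0 were called, against 0.444% of all tested genes called higher and 0.654% called lower in BNC lines. At an unadjusted p-value under 0.05 there were 2 (35.6% of all tested genes), and DESeq2 called 2 lower (9.13% of all). These were the same genes in both cases: Krt18, whose log2 fold change was -8.12 with a standard error of 1.29 (adjusted p = 0.0187), and Krt8, with -6.74 (standard error 1.63, adjusted p = 0.0457). Each NC line was above each BNC line for 5 of the 8 (Msln, Pdpn, Krt8, Krt18, and Krt19), a separation in this direction that 19.9% of all tested genes showed.

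At most of the other genes the BNC lines differed among themselves. Msln had -4.47 on the log2 scale with a standard error of 2.38 (adjusted p = 0.224), and Pdpn one of -2.40 with a standard error of 1.91 (adjusted p = 0.394). Krt19 was at -3.41 (standard error 1.80), Lrrn4 at -2.14 (1.93), Upk3b at -1.71 (1.57), and Wt1 at 0.30 (0.27). The median over the 8 genes was -2.90, beside -0.00227 over all tested genes. Without JB97 edgeR called 6 genes, all lower in BNC lines, namely Msln, Pdpn, Upk3b, Krt8, Krt18, and Krt19, and the log2 fold change of Msln became -12.3. In that fit 4.31% of all genes were called lower. Its BNC lines, JB81 and JB91, were nearly the same over all genes and may not count as 2 separate lines. Without JB81 and JB91, which leaves JB97 as the only BNC line, the log2 fold change of Krt18 was -6.50, that of Pdpn -0.79, and that of Upk3b -0.13. No call was made over all genes in that fit, where the lone line is assumed to vary like the NC lines. With JB81 and JB91 pooled to 1 line, and JB84 and JB93 to another, 0 genes were called and Krt18 had an adjusted p of 0.293. JB97 lay within the NC lines for Upk3b, Lrrn4, and Wt1, and below each of them for Msln, Pdpn, Krt8, Krt18, and Krt19.

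Tumors were then compared with the BNC lines in a fit of all 15 libraries and 15675 genes. Here 9 identity genes were tested (not Calb2), the log2 fold change was above 0 for all 9, and 2 were called higher, beside 20.5% of all genes called higher and 11.4% called lower. The called genes were Krt18, whose log2 fold change was 9.12 with a standard error of 1.63 (adjusted p = 0.000463), and Krt8, with 5.76 (standard error 1.52, adjusted p = 0.00599). DESeq2 called 5 higher (31.8% of all genes), and 4 had an unadjusted p-value below 0.05 in edgeR (60% of all genes). The size for Krt18 rests on 20 reads over the 3 BNC lines. Every tumor was above every BNC line for 3 genes, Pdpn, Krt8, and Krt18, as was the case for 25.3% of all genes. The share of the identity genes called was therefore near that of all genes.

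The other 7 genes were not called. For Lrrn4 the log2 fold change was 5.26 (1.73 as standard error, adjusted p = 0.0200), Krt7 one of 3.87 (1.91, adjusted p = 0.0993), and Upk3b one of 2.996 (1.55, adjusted p = 0.113). Msln was at 2.94 (standard error 1.61, adjusted p = 0.134), Pdpn at 2.81 (1.23, adjusted p = 0.0659), Krt19 at 2.18 (1.21, adjusted p = 0.137), and Wt1 at 0.07 (0.58, adjusted p = 0.920). Their median with Krt8 and Krt18 was 2.996, beside 0.38 over all genes. Without JB97, 7 of the 9 genes were called higher, beside 14.1% of all genes. The BNC lines left in that fit, JB81 and JB91, were nearly the same and may not count as 2 separate lines. Without JB81 and JB91, 0 were called, beside 2.3% of all genes, but JB97 was then the only BNC line and is assumed to vary like the other groups. With the close pairs summed, Krt18 was called (adjusted p = 0.00533) and Krt8 was not (adjusted p = 0.0303).

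**Figure D3:**
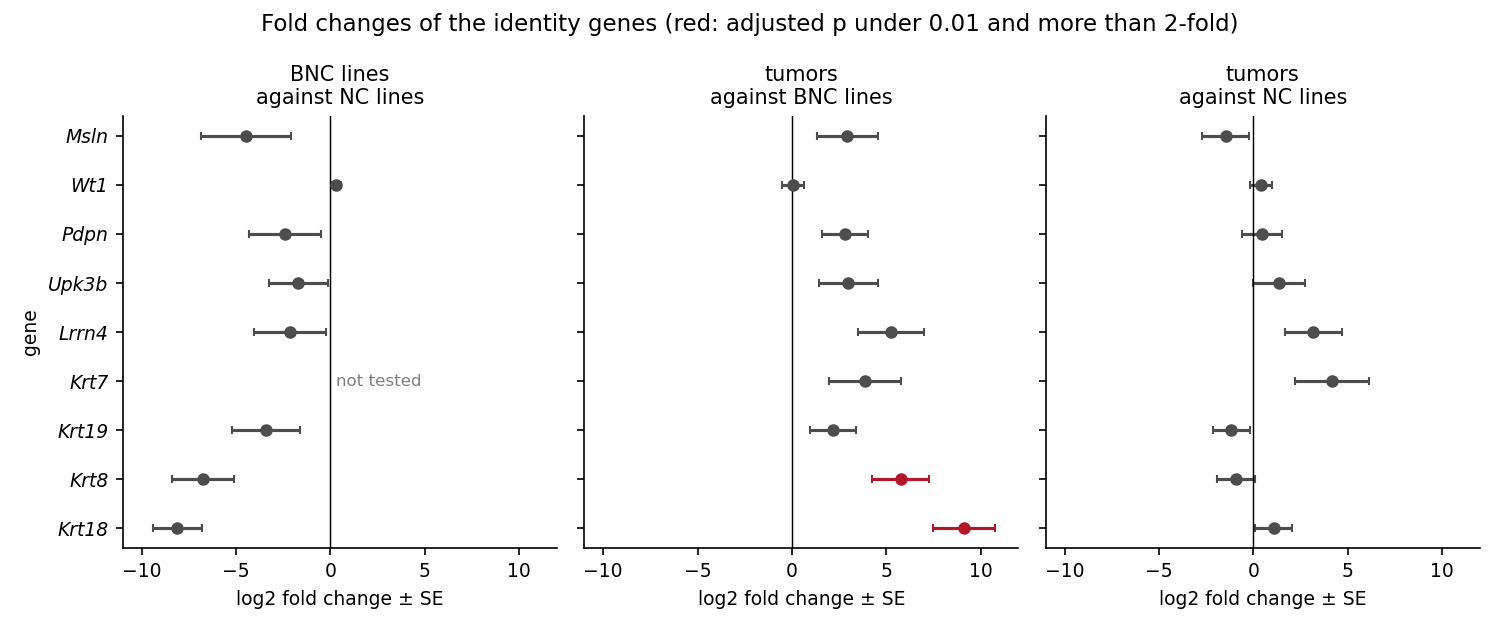
Log2 fold change with its standard error for each identity gene in the 3 comparisons (edgeR, red where adjusted p is under 0.01 and the change more than 2-fold). Krt8 and Krt18 are the most negative in BNC against NC lines and the only called genes in tumors against BNC lines, and most other bars reach within 2 standard errors of 0.

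Seen as detection, 9 identity genes (all but Calb2) were at 1 CPM or more in each of the 9 tumors, and 7 of these 9 were under 1 CPM in both JB81 and JB91. Over all genes, 11814 were at 1 CPM or more in each tumor, and 12.3% of them were under 1 CPM in both lines. Tumors hold cell types that a line does not, so the same was counted for genes that also the NC lines contain. Of the 7 identity genes at 1 CPM or more in each tumor and each NC line, 5 were under 1 CPM in JB81 and JB91 (Msln, Pdpn, Krt8, Krt18, and Krt19), beside 3.4% of 10292 such genes. Of the 8 identity genes low in this pair, 6 were at 1 CPM or more in JB97. The members were chosen with results of these libraries known, so these shares are descriptions.

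The same tumors compared with the NC lines showed 0 called identity genes of 9 tested by edgeR, and 0 had an unadjusted p-value under 0.05, beside 16.2% of all genes called higher and 9.69% called lower. DESeq2 called 1 higher, Krt7, at a log2 fold change of 4.26 (adjusted p = 0.00392), against 27.3% of all genes. An unadjusted p-value under 0.05 was found for 54.8% of all genes. In edgeR Krt7 had 4.17 (standard error 1.95, adjusted p = 0.0913) and Lrrn4 3.17 (1.52, adjusted p = 0.0974), and for each of them 7 of 9 tumors were above every NC line. Msln was at -1.47 (standard error 1.24), Krt19 at -1.16 (0.99), and Krt8 at -0.92 (0.996). The number of tumors below every NC line was 6 for Msln, 8 for Krt19, and 7 for Krt8. Krt18 was at 1.07 (standard error 1.002), Upk3b at 1.34 (1.38), Pdpn at 0.47 (1.05), and Wt1 at 0.39 (0.59). The 2 comparisons of tumors share the same 9 libraries.

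In whole tumors, fewer cells of a type and less RNA per cell cannot be told apart, and the tumors held other tissue. The skeletal muscle list summed to between 215 CPM (B14) and 53200 CPM (B45), with 51100 CPM in B19, 48200 CPM in B1, and 10200 CPM in B13, and to at most 4.66 CPM in the lines. Without these 4 tumors Krt8 and Krt18 were still called against BNC lines (adjusted p = 0.00921 and 0.00102). Leukocyte genes summed to between 994 and 6528 CPM in the tumors and at most 45.3 CPM in the lines, with Ptprc at no more than 0.08 CPM there. Tumor B2 held airway and alveolar genes, with Scgb1a1 at 30129 CPM, Sftpc at 12969 CPM, and Nkx2-1, which encodes TTF-1, at 60.2 CPM. Nkx2-1 was at 0 in 7 of the other tumors and at 0.40 CPM in B13. In tumor 22 and B28, where Krt18 was highest, Sftpc was 0.34 and 0 CPM, Scgb1a1 0.80 and 0.36 CPM, Ager 3.95 and 6.52 CPM, and Aqp5 4.75 and 2.32 CPM. The 10 genes of the lung epithelial list summed to 10.0 CPM in tumor 22 and 9.48 CPM in B28, beside 4.94 to 108 CPM in the tumors other than B2 and at most 3.55 CPM in the lines. Without B1 and B2, Krt18 was called against BNC lines (adjusted p = 0.000904) and Krt8 had an adjusted p of 0.0104.

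Of the leukocyte list 9 of 10 genes were called higher in tumors than in BNC lines, as were 7 of 8 skeletal muscle genes, 6 of 6 of blood endothelium, 5 of 6 of fibroblasts, 3 of 4 of lymphatic endothelium, 1 of 4 tested of heart muscle, and 1 of 4 tested of adipocytes. Of all tested genes 20.5% were called higher in this comparison. Of the 5 tested genes of alveolar and airway epithelium 0 were called by edgeR, 5 reached 0.05 before adjustment, and DESeq2 called 4. The part of these cells in the identity gene levels of the tumors was not tested.

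The tumors did not share a common level of the markers, and their order differed between genes. B14 had the highest Msln, Wt1, Pdpn, Upk3b, Krt7, Krt8, and Krt19 of the 9 tumors, whereas B28 had the lowest Msln, Wt1, Upk3b, Lrrn4, and Krt7. B27 had the lowest Krt8, Krt18, and Krt19. Per kilobase of exon, the order of the tumor medians was Msln (188), Pdpn (139), Upk3b (118), Krt19 (77.7), Krt8 (61.7), Krt18 (58.6), Lrrn4 (15.9), Krt7 (14.6), and Wt1 (14.4 CPM per kb), with Calb2 at 0. From Msln to Wt1, the ranges of neighbors in this order overlapped. The order depends on the exon lengths, which were 7049 bp for Krt7 and 6195 bp for Wt1. The other members had 1437 to 3715 bp. Without scaling to length, the tumor medians of Krt7 and Krt8 were 103 and 121 CPM.

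Msln, Upk3b, Lrrn4, and Krt7 rose and fell together over the tumors, on the scale of log2(CPM + 1). Of the 45 pairs of members, 13 had an adjusted p-value of Pearson's r under 0.05 by a two-sided exact permutation test over the 9 tumors, and 14 of Spearman's rho. Msln with Krt7 gave r = 0.990 (rho = 0.950, adjusted p = 0.000372 by the exact permutation test), and r = 0.968 without tumors 22 and B28, the 2 farthest from the median of Msln. Msln with Upk3b gave r = 0.976 (rho = 0.983, adjusted p = 0.000372 by the exact permutation test, and r = 0.969 without them), and Upk3b with Lrrn4 r = 0.963 (rho = 0.883, adjusted p = 0.00149, exact permutation, and r = 0.852 without them). Wt1 with Msln gave r = 0.835 (rho = 0.950, adjusted p = 0.0312, exact permutation). These values share their library scaling. Without B1 and B2, and so with fewer tumors to permute, 7 of the 45 pairs had an adjusted p-value of r under 0.05. The r values themselves were then 0.994 (Msln with Krt7), 0.976 (Msln with Upk3b), 0.979 (Upk3b with Lrrn4), and 0.885 (Wt1 with Msln).

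Krt8 and Krt18 went together (r = 0.850, rho = 0.867, adjusted p = 0.0238 by the exact permutation test, and r = 0.702 without B27 and B45), but apart from the mesothelial genes. Msln and Krt18 had r = -0.315 (rho = -0.133, p = 0.406 by the exact permutation test, adjusted p = 0.560). Without tumors 22 and B28, which were lowest in Msln and highest in Krt18, the same r was 0.876. The r of Krt18 moved likewise from -0.348 to 0.916 with Krt7 and from -0.470 to 0.816 with Upk3b. Msln and Krt8 went from 0.041 to 0.763. The sign of the 3 relations with Krt18 thus rests on the 2 tumors, and a correlation within those 2 cannot be computed. Tumor 22 had 102 CPM of Msln beside 506 CPM of Krt18, and B28 had 43.4 CPM beside 437 CPM, whereas the other 7 tumors had between 143 and 1446 CPM of Msln and between 23.7 and 271 CPM of Krt18.

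**Figure D4:**
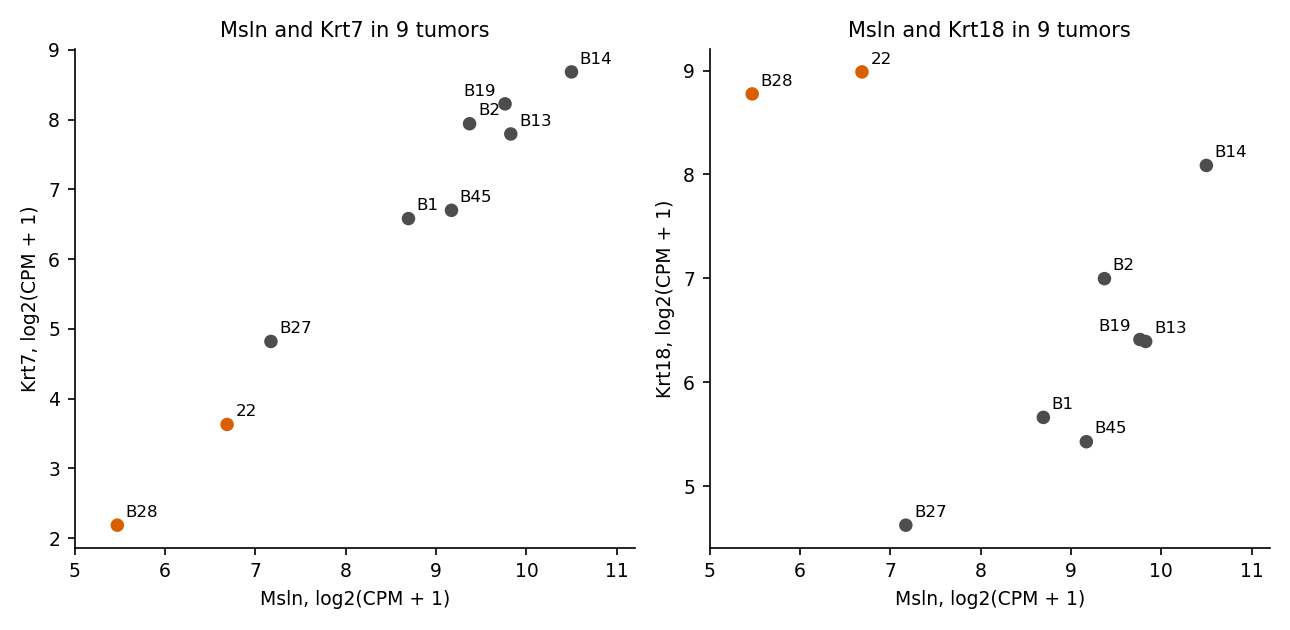
Krt7 (left) and Krt18 (right) against Msln in the 9 tumors, as log2(CPM + 1), with tumors 22 and B28 in orange. Krt7 follows Msln through all 9 tumors (r = 0.990), whereas Krt18 follows it in the other 7 (r = 0.876) and is highest in the 2 orange tumors.

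Among the 15585 other genes of the fit that varied over the tumors, those with the pattern most like each member were found by r over the 9 tumors, as a description without a test. Msln was closest to Afap1l2 (r = 0.992) and then to Krt7, Lrrn4 to Tmeff2 (0.992) and Gpm6a (0.978), and Upk3b to Plxdc2 (0.988) and Cd55 (0.981). Krt7 was closest to Msln and Smim1 (0.983), Wt1 to Ncam2 (0.977) and Mboat1 (0.973), and Pdpn to Csrp1 (0.977) and Tlnrd1 (0.975). For Krt18 the closest were Samd5 (0.967) and Snx4 (0.949), for Krt8 Gm10093 (0.928) and Bivm (0.915), and for Krt19 Ndnf (0.967) and Nt5dc1 (0.961).

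Other mesothelial genes did not all follow the pattern of the members. Of the 15 genes of this list, 8 were under 1 CPM in JB81 and JB91, and 4 of these 8 were at 1 CPM or more in JB97 and in each NC line. These were Upk1b, a uroplakin (0.54 and 0.87 CPM in JB81 and JB91, 256 CPM in JB97, and 99.3 to 334 CPM in NC lines), Gpm6a, a membrane glycoprotein (0.041 and 0 against 251 and 236 to 254 CPM), Bnc1, a zinc finger protein (0 and 0 against 6.41 and 40.3 to 93.6 CPM), and Thbd, which encodes thrombomodulin (0.25 and 0.17 against 43.5 and 24.7 to 91.0 CPM). In the tumors these genes lay between 6.24 CPM (Gpm6a in B28) and 1203 CPM (Upk1b in B14). Efemp1, an extracellular matrix gene, was low in the same pair at 2.11 and 2.41 CPM beside 655 CPM in JB97. The opposite order was seen at Rspo1, a secreted activator of Wnt signaling (11.7 and 11.3 CPM in JB81 and JB91, 1.80 CPM in JB97, and at most 2.86 CPM in the NC lines), and at Nkain4 (2.93 and 2.86 against 0.601 and at most 1.39 CPM). Aqp1, a water channel, was at 21.2 and 21.7 CPM in the pair and at 1.70 CPM in JB97, with 0.272 to 19.1 CPM in the NC lines. The transcription factor gene Gata4 was higher in each BNC line (24.2 to 40.6 CPM) than in each NC line (17.6 to 18.6 CPM), and Tbx18, another, was at 18.9 and 20.4 CPM in the pair beside 25.6 to 50.2 CPM in the other lines. Of the 11 genes tested between BNC and NC lines 0 were called by edgeR, 2 reached 0.05 before adjustment, and DESeq2 called 0, with a median log2 fold change of -0.21.

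A few genes of this list were near 0 in the lines of both genotypes. In tumors against BNC lines 3 of 14 tested genes were called higher, Dmkn, Aldh1a2, which makes retinoic acid, and Nkain4 (log2 fold change 4.15). Gata4 was called lower (-2.45). Of all tested genes 20.5% were called higher and 11.4% lower in this comparison. In tumors against NC lines 5 of 14 were called higher, Dmkn, Aldh1a2, Nkain4 (5.24), Rspo1 (6.50), and Aqp1 (4.93), and Gata4 was called lower (-1.53). Here 16.2% of all tested genes were called higher and 9.69% lower. Aldh1a2 was at most 0.17 CPM in the 6 lines and between 4.10 CPM (B28) and 182 CPM (B14) in the tumors. Dmkn was at most 0.14 CPM in the lines and between 1.55 CPM (B28) and 109 CPM (B14) in the tumors. The median log2 fold change of the list was 3.35 against BNC lines and 2.48 against NC lines, beside 0.38 and 0.31 over all genes.

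**Figure D5:**
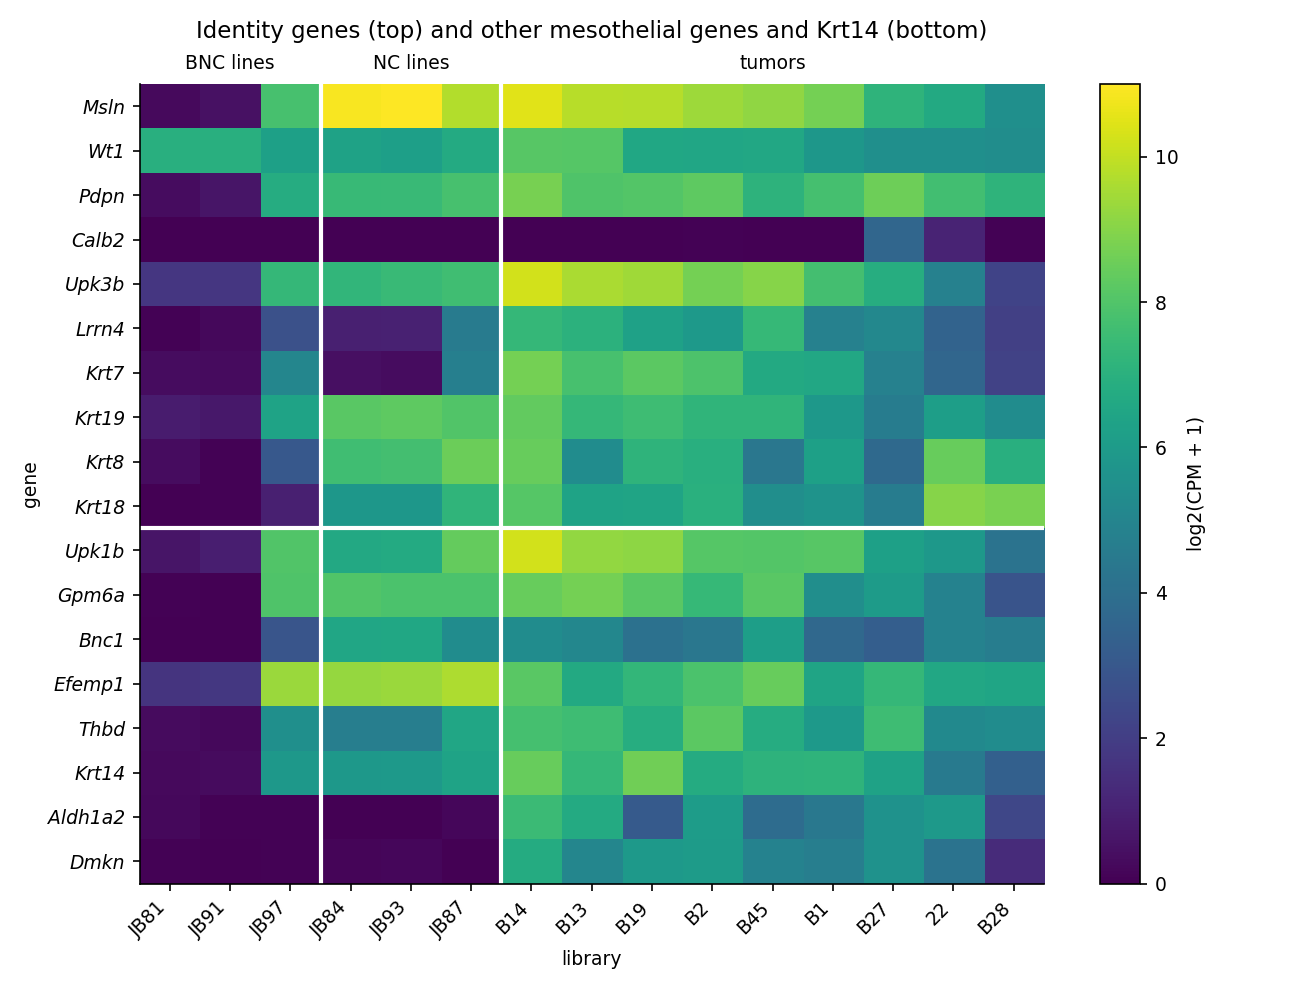
Levels as log2(CPM + 1) of the 10 identity genes (top) and of 8 further genes (bottom) in the 15 libraries, with the tumors in the order of falling Msln. Upk1b, Gpm6a, Bnc1, Efemp1, Thbd, and Krt14 are darkest in JB81 and JB91, and Aldh1a2 and Dmkn are dark in all 6 lines.

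Of 12 other keratins, most of them of stratified epithelia, 10 were under 1 CPM in JB81 and JB91, and 1 of these 10, Krt14, was at 1 CPM or more in JB97. Krt14 had 0.21 CPM (JB81), 0.25 CPM (JB91), and 57.1 CPM (JB97), 57.9 to 82.1 CPM in the NC lines, and 9.25 CPM (B28) to 392 CPM (B19) in the tumors. Of the list 4 genes were tested between BNC and NC lines and 10 between tumors and lines, and 0 were called by edgeR in each comparison. The numbers with an unadjusted p-value under 0.05 were 2, 8 against BNC lines, and 3 against NC lines, and DESeq2 called 1, 5, and 1. Tumor B27 alone held Krt5 (38.3 CPM, at most 3.68 CPM elsewhere) and Krt6a (25.2 CPM, at most 1.51 CPM elsewhere), and it was also the tumor with the most Calb2.

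Genes of epithelial junctions were few in the lines and also in most tumors. Of 22 such genes 17 were under 1 CPM in JB81 and JB91, as were 15938 of all 27197 genes. Of the 17 only 1 was at 1 CPM or more in JB97 and 0 were in each NC line. In each tumor 5 of the 22 were at 1 CPM or more, beside 11814 of all genes. Epcam had a tumor median of 0.59 CPM and 40.1 CPM in B2, the tumor that held airway and alveolar genes. Cdh1, which encodes E-cadherin, was at 1.03 CPM (JB81), 0.58 CPM (JB91), 10.96 CPM (JB97), between 0.32 and 2.86 CPM in the NC lines, and between 2.29 CPM (B45) and 138 CPM (B2) in the tumors. The most abundant were Jup, which encodes plakoglobin (at 98.2, 110, and 65.9 CPM in JB81, JB91, and JB97), and Dsp, which encodes desmoplakin. Dsp had 1.16 CPM (JB81), 0.79 CPM (JB91), 28.8 CPM (JB97), and 89.8 to 241 CPM in the NC lines. In tumors against BNC lines 5 of 16 tested genes were called higher, beside 20.5% of all tested genes. Among the 5 were the desmosome genes Pkp3 (0 reads in the BNC lines, 3.80 to 18.8 CPM in the tumors) and Dsg2 (0 reads, 0.547 to 38.8 CPM). The transcription factor gene Grhl1 was another (log2 fold change 3.35). In tumors against NC lines Pkp3 was called higher (4.42) and Dsp lower (-3.18).

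Of 13 mesenchymal genes 13 were at 1 CPM or more in each tumor, and 0 were under 1 CPM in both JB81 and JB91. Acta2 and Tagln, which encode smooth muscle proteins, were low in JB84 and JB93, the NC lines that were nearly the same over all genes. Their levels were 0.692 and 0.567 CPM in JB84 and 1.49 and 0.362 CPM in JB93. Vim, which encodes vimentin, was at 11935 CPM (JB81), 12060 CPM (JB91), and 4309 CPM (JB97), and at 1222 CPM in JB84, 4252 CPM in JB87, and 1260 CPM in JB93. The tumors lay between 992 CPM (B45) and 3399 CPM (B28). Each BNC line was thus above each NC line, by a log2 difference of 2.06 with a standard error of 0.67 (adjusted p = 0.0885), while JB97 and JB87 nearly met. Of 13 tested mesenchymal genes 0 were called between BNC and NC lines by edgeR, 5 reached 0.05 before adjustment, and DESeq2 called 1. In tumors against BNC lines Col3a1 was called higher (log2 fold change 5.28), and Snai2, which encodes the repressor SLUG (-2.72), Cdh2 (-4.03), and Vim (-2.33) were called lower. Snai2 was at 43.7 CPM (JB81), 40.9 CPM (JB91), and 41.1 CPM (JB97), and at 21.6 to 22.7 CPM in the NC lines (log2 fold change 0.90, standard error 0.13, adjusted p = 0.0151). In the same comparison Snai1 was at 2.29, Zeb2 at 0.45, and Zeb1 at -0.26 on the log2 scale. The 2 most abundant genes of the list did not follow Vim, with Col3a1 at -1.94 and Fn1 at -0.08. A relation of the repressor genes to the keratin levels was not tested.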

How the data were processed

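The RNA libraries of 6 mesothelioma lines and 9 tumors of the mouse were analysed. For each Ensembl gene the authors deposited the raw read counts, not normalized. Per the study's methods, poly-A-selected RNA was read from 1 end, mapped to mm10 with TopHat2 (2.0.12), filtered for mapping quality and primary alignments, and counted with HTSeq. Lines were assigned to groups by their names. The names of tumor columns do not give a genotype, so tumors were 1 group. All RNA columns were used (0 left out), and the DNA table and the chromatin profiles were not used here.

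The tests used edgeR 4.0.16 in R 4.3.3 (filterByExpr with a minimum count of 10, TMM, quasi-likelihood test), in 1 fit of the 6 lines for BNC against NC and 1 fit of all 15 libraries for the tumors, which then share 1 estimate of the spread. Calls required a p below 0.01 after Benjamini-Hochberg adjustment and a change over 2-fold. CPM are TMM-scaled in the 15-library fit. The standard error was derived from the log2 fold change and the F statistic, as their ratio after taking the root of F. DESeq2 1.42.0, other scalings, filters, and thresholds, the replicate block, the prefix of the column names, summed pairs, and left-out libraries were alternatives. The tests were checked on simulated data. Correlations use log2(CPM + 1). Floors of 3 counts cover counting error only. Symbols were found for 98.5% of gene identifiers. Positions and exon lengths come from GENCODE M21 on GRCm38, upstream sequences from RefSeq on GRCm38.p6, where 6 of the 10 members matched.

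The members and gene lists were chosen with earlier results of these data known. Genes named beyond the members are, per list, called genes with the smallest p-values, the 2 most abundant, and Vim, Cdh1, Nkx2-1, Myog, and Bap1. Others, such as Krt5, Krt6a, Bnc1, Thbd, Gpm6a, Tbx18, Ager, Aqp5, Acta2, Tagln, Snai1, Zeb1, Zeb2, Epcam, Prox1, Lyve1, Ccl21a, and Ptprc, were named after their values were seen. Plots used matplotlib 3.10.9 (Python 3.11.15).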

Additional observations from a re-analysis of the deposited data

Results flagged for a closer look

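Calb2 in tumor B27 stood far above the other 8 tumors: it had 248 reads (11.3 CPM) there, 20 reads in tumor 22, and at most 1 read in each of the remaining 7 tumors. On the log2(CPM + 1) scale its gap to the next tumor was 0.696 of the whole range of the 9 tumors, past Dixon's 95% critical value. That critical value is for normally distributed values, which a gene with at most 1 read in 7 tumors does not have. No rate by chance can therefore be given for this gap. The 10 genes were each looked at in the lowest and the highest tumor. B27 was also the tumor with the most Krt5 and Krt6a.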

How the results depend on the processing

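The number of identity genes called in BNC against NC lines was 0, and it was 2 with DESeq2, 2 at an adjusted p under 0.05, and 1 with all 15 libraries in 1 fit. With 1 line left out at a time the number was 0 to 6, being 6 without JB97 and 1 without JB87. Without JB97 the BNC lines left are the close pair JB81 and JB91. In tumors against BNC lines it was 2, and it became 0 with at least 10 counts in every library (which leaves out Krt8 and Krt18 themselves), 5 with DESeq2, 1 with close pairs summed, 1 without tumors B1 and B2, 0 without JB81 and JB91 (1 BNC line left, assumed to vary like the other groups), and from 1 to 7 when libraries were left out in turn (7 without JB97, 1 without JB81 or JB91, and 2 without any tumor). In tumors against NC lines it was 0, and 1 with DESeq2. Among the fold changes of identity genes, those of Lrrn4 and Wt1 changed sign: Lrrn4 in BNC against NC lines was 0.93 without JB87, Wt1 there was -0.21 without JB81 and JB91, and Wt1 in tumors against BNC lines was -0.16 without JB97, -0.23 without B14, -0.20 without B13, and -0.098 without the 4 tumors with the most skeletal muscle. With libraries left out in turn, Lrrn4 in BNC against NC lines ranged from -6.22 to 0.93, and Wt1 in tumors against BNC lines from -0.23 to 0.213. None of these 6 sign changes was called, and the cause was not tested.

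Over all genes, 136 were called in BNC against NC lines, and 83 with at least 10 counts in every library, 1846 with DESeq2, 1436 at an adjusted p under 0.05, 1 with the column prefix as covariate, 0 with close pairs summed, 416 with 15 libraries in 1 fit, 0 without JB81 and JB91, and 0 to 2574 with a line left out in turn. In tumors against BNC lines 5012 were called, and 2492 with at least 10 counts in every library, 2910 with close pairs summed, 792 without JB81 and JB91, and 3066 to 5395 with libraries left out in turn. In tumors against NC lines 4062 were called, and 1881 with at least 10 counts in every library, 6128 at an adjusted p under 0.05, 1786 with close pairs summed, and 2012 to 4505 with libraries left out in turn. Of the correlations, 13 pairs passed, 10 without B1, and 7 without B1 and B2.

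The replicate numbers did not pair the lines: same-numbered lines had correlations of their deviations of 0.128 (JB81 and JB84), -0.086 (JB91 and JB87), and -0.094 (JB97 and JB93), where JB97 is taken as number 3 because the study numbers both JB91 and JB97 as 2. As number 2, JB97 had 0.1 with JB87. With the replicate block 0 identity genes and 0 of all genes were called, with either numbering of JB97. The column prefix could not be fitted for the tumors, which share 1 prefix. Depth limited the low values: in JB81 and JB91, 1 read was worth 0.041 CPM. Left-out tumors, the sets without B1 and B2, without JB81 and JB91, and without the muscle-rich tumors were chosen after seeing the data.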

Other observations

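Myog, which encodes the muscle factor MYF-4, was between 1.23 CPM (B2) and 112 CPM (B1) in the tumors and at most 0.08 CPM in the lines. The skeletal muscle list, which includes Myog, summed to 916 CPM in B2 and 48200 CPM in B1. It was highest in B45, where Myog was at 12.4 CPM. In the study, tumors stained negative for MYF-4 and TTF-1, which concerns protein in sections and not RNA of whole tumors. The identity genes summed to 127 CPM in JB81 and in JB91, nearly all of it Wt1, to 699 CPM in JB97, to between 2185 and 3018 CPM in the NC lines, and to between 811 CPM (B27) and 4887 CPM (B14) in the tumors. Heart muscle genes summed to between 6.53 CPM (B14) and 731 CPM (B1) in the tumors, and adipocyte genes to between 6.02 CPM (B28) and 1634 CPM (B45). Of the heart muscle sum in B1, Tnnt2 made up 721 CPM, Tnni3 9.42 CPM, and Ryr2 0.856 CPM, with Myh6, Nppa, and Myl7 at 0. Tnnt2 was also at 33.8 to 71.7 CPM in the NC lines.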
